A study of Homo sapiens with 11 samples.

Results

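The genes described here are the numbered zinc finger genes of human chromosome 19, those with a symbol of the form ZNF plus a number, as measured in PC-3, an established line of human prostate cancer cells. Members were the probes with such a gene symbol and an hg18 coordinate on chromosome 19 for which 6 or more of the 11 arrays gave a signal well above background. The arrays carried 337 such probes of 210 genes, and 273 probes of 187 genes passed, out of 27135 probes that passed the same filter among 41000. Of the members, 203 probes were well above background on all 11 arrays. Of the 64 probes that did not pass, 18 were well above background on 0 arrays, and 23 genes had none of their probes among the members. The 6 probes that passed with exactly 6 arrays had a median mock signal of -5.42, and the 9 probes that failed with 5 arrays had one of -5.84. Signals are given throughout as log2 values with the 75th percentile of each array set to 0.

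RNA was taken at 24 h, that of 4 transfections was mixed, and 150 ng was used per array. The mock cells were given the transfection reagent without a duplex, and have 4 arrays (samples 1, 8, 9 and 11). miR-372 has 2 arrays (samples 4 and 10), and dsEcad640 (sample 2), miR-302a (sample 3), miR-373 (sample 7), miR-520c (sample 12) and miR-520f (sample 6) have 1 each. dsEcad640 is an siRNA complementary to the E-cadherin promoter, and the others are duplexes of the named miRNAs. Samples 1 to 4 form set 1, samples 6 to 8 set 2 and samples 9 to 12 set 3, where a set is 1 slide. The miR-520f array is titled miR-530f, while its other labels name miR-520f. Since the sources used here do not state whether mock arrays came from separate mixes, p-values measure the spread between these arrays, and the number of arrays limits the precision.

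Most ZNF genes of chromosome 19 encode proteins with a row of C2H2 zinc fingers, which bind DNA, and many carry a KRAB domain at the other end. The KRAB domain binds TRIM28, a scaffold that brings SETDB1, heterochromatin proteins, histone deacetylases and DNA methylation to the bound site, and many of its targets lie in retrotransposons. The genes arose by repeated local duplication and lie in clusters of close relatives, so that a probe of one gene may also take up RNA of another. The question addressed here is which of these genes changed under duplexes that share a seed, the bases by which a miRNA or siRNA pairs with its target mRNAs. The mature sequences below (RefSeq, GRCh38.p14) are shown because they define the groups, with the seed, bases 2 to 8, in capitals.
hsa-miR-302a-3p: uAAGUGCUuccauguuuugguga
hsa-miR-372-3p: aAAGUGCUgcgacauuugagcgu
hsa-miR-373-3p: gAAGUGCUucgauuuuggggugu
hsa-miR-520c-3p: aAAGUGCUuccuuuuagagggu
hsa-miR-520f-3p: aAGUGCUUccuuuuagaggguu
All of these but miR-520f share the seed AAGUGCU, which the study assigns to dsEcad640 too, and these are called the common-seed duplexes. miR-520f has the seed AGUGCUU, the same bases shifted by 1 position.

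ZNF226 was the single member that fell past the threshold under the common-seed duplexes, and 0 members rose. Of its probes, 2 were members, and another, well above background on 1 array, was not. One of the 2 member probes lies at chr19:49371127-49371186, and its log2 signal was -0.25, -0.16, 0.07 and 0.33 on mock samples 1, 8, 9 and 11. On dsEcad640 it was -1.26, on miR-302a -1.15, on miR-372 samples 4 and 10 -1.10 and -0.69, on miR-373 -1.08 and on miR-520c -0.82. Each common-seed array lay below each mock array. In bulk RNA, fewer cells that hold a transcript and less of it per cell cannot be told apart. Against the mock arrays of its own set, the fall was between 0.85 and 1.03 on the log2 scale on all 6 arrays, whereas mock sample 11 exceeded mock sample 9 by 0.26. The limma fit over 10 arrays took the 6 common-seed arrays, 2 of them miR-372, as 1 group. Its SE and p-values thus mix differences between duplexes with those between arrays. With the set as a block, this fit gave a log2 difference of -0.94 with an SE of 0.08, a signal 1.92-fold lower, with an adjusted p of 0.00341. This call was lost by a narrow margin without mock sample 1 (adjusted p = 0.0527) and with the mean of both probes (log2 difference -0.45, adjusted p = 0.0554).

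The other ZNF226 member probe, at chr19:49373544-49373603 and thus downstream of the first on the plus strand, did not show this fall. Its log2 signal was -0.37, -0.33, -0.03 and 0.55 on mock samples 1, 8, 9 and 11. The common-seed arrays reached from -0.60 on miR-302a to 0.74 on miR-520c, so that both groups overlapped, and the log2 difference was 0.05 with an SE of 0.16 (adjusted p = 0.912). The ZNF226 probes are annotated to different RefSeq transcripts of the gene, and which transcripts each one binds was not tested.

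**Figure D1:**
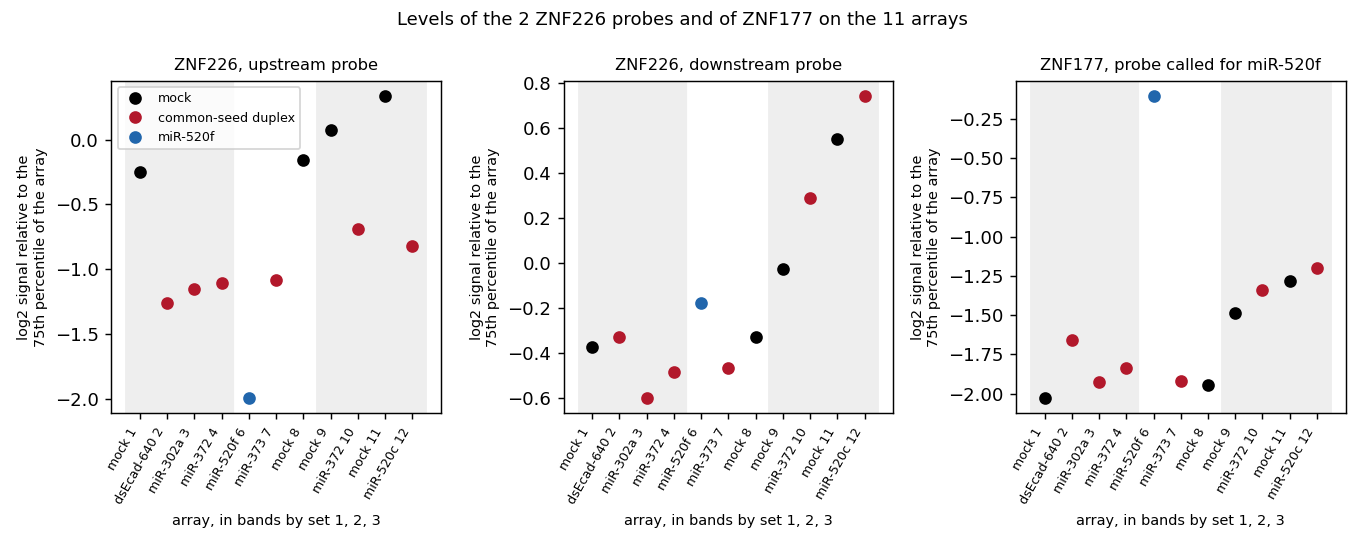
Log2 signal, 0 being the 75th percentile of an array (y), of both ZNF226 member probes and of the ZNF177 probe called for miR-520f, on the 11 arrays (x, shaded by set), each point being 1 array. The upstream ZNF226 probe lies between -1.26 and -0.69 on the common-seed arrays and between -0.25 and 0.33 on the mock arrays, the downstream probe overlaps between the groups, and ZNF177 is highest on miR-520f at -0.10.

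Among all 27135 probes, the same fit called 2.03% lower and 2.16% higher. Among the members it called 1 of 273 lower (0.366%) and 0 higher, and at an unadjusted p under 0.05 there were 8 lower (2.93%) and 24 higher (8.79%), where 9.35% of all probes were lower and 11.7% higher. Of the 307 ZNF probes of other chromosomes, 5 were lower and 7 higher, and of the 1422 other probes of chromosome 19, 21 were lower and 38 higher. The differences between these shares were not tested. The member probes had log2 differences from -0.94 to 0.97, and 262 of 273 lay within 0.5 of 0. Their median was 0.06, beside 0.08 for the ZNF probes of other chromosomes, 0.06 for the other probes of chromosome 19 and 0.03 for all probes. On all 6 arrays, 12 member probes (4.4%) were below and 48 (17.6%) above the mock arrays of their set, beside 11.4% and 16.6% of all probes. The count of member calls depended on the arrays and the filter: without miR-372 sample 4 it was 4 lower and 2 higher, and over the probes well above background on all 11 arrays 3 lower and 4 higher. The calls over all probes grew as well, to 4.11% lower and 2.99% higher without that array and to 4.48% and 5.27% with all 11 arrays, so that the member shares, of at most 1.97%, lay below them.

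Those 4 lower probes without miR-372 sample 4 were ZNF226, ZNF575, ZNF439 and ZNF155, and the 2 higher ones were ZNF792 and ZNF787. ZNF155, which did not pass with all arrays, then had a log2 difference of -0.76 (adjusted p = 0.0225) and ZNF439 one of -0.55 (adjusted p = 0.0354). These names were chosen after their values were seen.

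The next 5 member probes by p on the falling side did not pass. ZNF473, which encodes a protein of the U7 complex that forms the 3′ ends of histone mRNAs, had log2 signals of -2.08, -2.23, -2.39 and -2.58 on mock samples 1, 8, 9 and 11, and of -2.33 to -3.38 on the common-seed arrays. The ranges overlapped between sets, but within its set each of the 6 arrays was lower, by 0.15 to 0.89. The fit gave -0.48 with an SE of 0.13 and an adjusted p of 0.0777. This probe passed with normexp correction (adjusted p = 0.0497) and with probes well above background on all 11 arrays (adjusted p = 0.0427), whereas the other ZNF473 probe had a difference of 0.28 and the mean of both probes one of -0.10.
One ZNF575 probe, at chr19:48731857-48731916, lay between -2.72 and -2.57 on the 4 mock arrays and between -3.32 and -2.89 on the common-seed arrays. These groups did not overlap, and the log2 difference was -0.41 with an SE of 0.11 (adjusted p = 0.0761). ZNF586 had a log2 difference of -0.36, ZNF77 one of -0.25 and ZNF493 one of -0.30, at adjusted p-values of 0.161, 0.175 and 0.179. These ZNF586 and ZNF77 probes were below their mock arrays on 6 of 6 arrays and that of ZNF493 on 5 of 6. Each value is that of 1 probe of the gene. Over all member probes, the differences ran from -0.36 to 0.14 for ZNF586 and from -0.30 to 0.34 for ZNF493. For ZNF77 they ran from -0.51 to -0.25.

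On the rising side, the 6 probes of the smallest p were above the mock arrays of their set on all 6 arrays, and none passed. Over the probes well above background on all 11 arrays, ZNF702, ZNF792, ZNF787 and ZNF581 passed, at adjusted p-values of 0.0398, 0.0275, 0.0301 and 0.0464. One of the 2 member probes of ZNF702, annotated in RefSeq as the transcribed pseudogene ZNF702P, had the largest of these differences. Its log2 signal was -3.60, -3.42, -3.34 and -3.10 on mock samples 1, 8, 9 and 11, and ran from -2.94 on miR-373 to -1.40 on miR-520c. The groups did not overlap, and the log2 difference was 0.97 with an SE of 0.26 (adjusted p = 0.0772). For this probe it was 0.54 with normexp correction (adjusted p = 0.174) and 0.80 with quantile normalization (adjusted p = 0.284). The other ZNF702 probe had a difference of 0.43. ZNF792 differed by 0.58 with an SE of 0.13 (adjusted p = 0.0545), with own-set differences from 0.28 on miR-520c to 0.82 on miR-372 sample 4.
ZNF787 differed by 0.39 with an SE of 0.09 (adjusted p = 0.0551), and this probe passed under quantile normalization (adjusted p = 0.0452), normexp correction (adjusted p = 0.0277) and with the deposited log2 table (adjusted p = 0.0258). ZNF581, ZNF587 and ZNF324 differed by 0.32, 0.36 and 0.27, at adjusted p-values of 0.0777, 0.0896 and 0.0909. This ZNF587 probe had the highest difference of 3, which ran from -0.16 to 0.36. Mock sample 11 differed from mock sample 9 by -0.42 for ZNF792, by -0.34 for ZNF587 and by 0.27 for ZNF581, sizes within the range of the duplex differences of these probes.

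**Figure D2:**
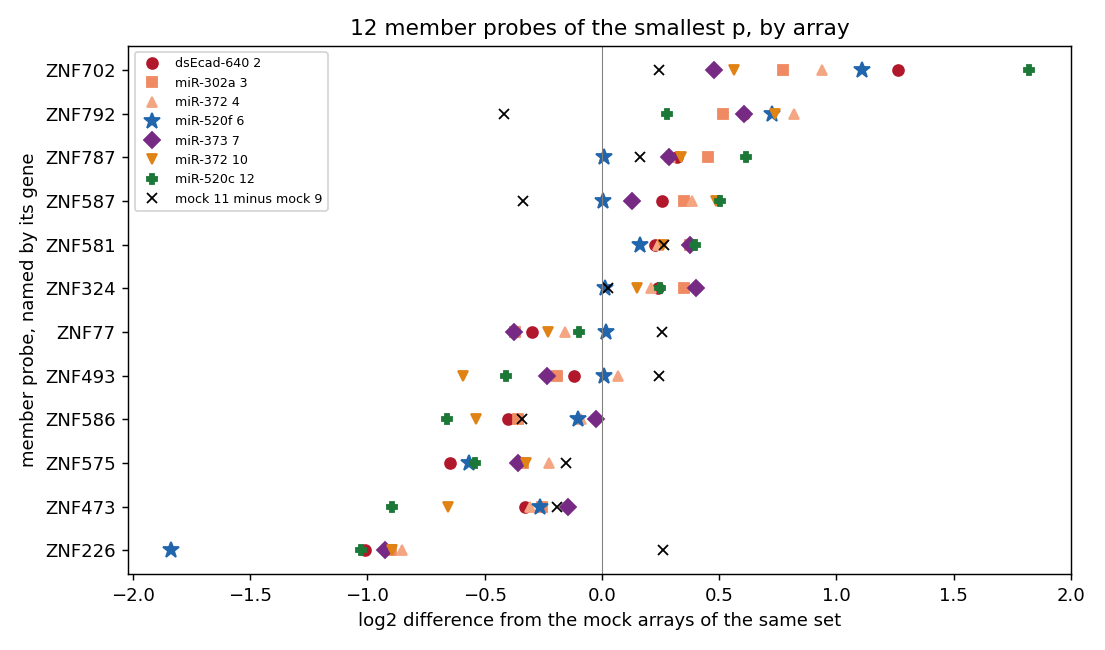
Log2 difference from the mock arrays of the same set (x) for the 12 member probes of the smallest p on either side (y), with 1 symbol per duplex array and crosses for mock sample 11 minus mock sample 9. ZNF226 lies apart at -0.85 to -1.03 on the common-seed arrays and at -1.84 on miR-520f, and no other probe passed the test.

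miR-520f, with its shifted seed, had a lower signal of the upstream ZNF226 probe than any common-seed array. The probe was at -1.99 on miR-520f and at -0.16 on mock sample 8, a 3.57-fold lower signal. The limma test of miR-520f against the common-seed duplexes gave a further log2 difference of -0.90 with an adjusted p of 0.09995, so the excess did not pass.

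In that test, 1 of 273 members passed, ZNF177, which was higher on miR-520f, and 0 were lower. Among all probes it called 0.0295% lower and 0.0369% higher. At an unadjusted p under 0.05, 4 members were lower and 7 higher, with 4.43% and 3% of all probes. The ZNF177 probe at chr19:9353686-9353745 had log2 signals of -2.03, -1.95, -1.49 and -1.29 on mock samples 1, 8, 9 and 11, and of -1.93 to -1.20 on the common-seed arrays. On miR-520f it was at -0.10, above all other arrays. The log2 difference from the common-seed duplexes was 1.76 with an SE of 0.17 (adjusted p = 0.0355), and it rests on 1 miR-520f array. A second ZNF177 probe starts 26 bases beyond the end of the first, at chr19:9353771-9353830, and was at -0.59 on miR-520f and -0.43 on mock sample 8, with a log2 difference of -0.25 (adjusted p = 0.965). The call of the first probe was lost in 7 of 12 alternatives, with adjusted p-values of 0.00866 to 0.298 over all of them and of 0.0765 to 0.11 without mock sample 1, 9 or 11 or without miR-372 sample 10.

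The probes of ZNF525 also differed from each other. The probe at chr19:58578838-58578897 was at -1.49 on miR-520f, against -3.76 to -3.43 on the mock arrays and -3.90 to -3.08 on the common-seed arrays, a log2 difference from the common-seed duplexes of 2.16 (adjusted p = 0.0526). It passed with probes well above background on all 11 arrays (adjusted p = 0.0202) and without miR-372 sample 4 (adjusted p = 0.0099). The other ZNF525 probe, at chr19:58581489-58581548, was at 4.44 on miR-520f and 4.54 on mock sample 8. ZNF548 was at -3.06 on miR-520f and -4.55 on mock sample 8, and on miR-372 sample 4 it exceeded mock sample 1 by 2.44. The lowest differences from mock sample 8 beside that of ZNF226 were those of ZNF507, -1.86, and ZNF649, a KRAB repressor, -1.34. Both of these probes were not well above background on miR-520f. The signal of this ZNF507 probe was thus at least 1.17-fold lower than on mock sample 8, and for ZNF649 no fold could be given. The other ZNF507 member probe, with a higher mean mock signal (-1.53 against -4.04), was not lower on miR-520f than on mock sample 8. The fall of ZNF507 was thus that of 1 of its 2 member probes, and a further probe, well above background on 5 arrays, was not a member.

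Each duplex array was also set against the mock arrays of its own set, with no test, and with a log2 difference of 0.5 as the size counted. As a spread measured the same way, mock sample 11 was set against mock sample 9. Between these mock arrays, 6 members were lower and 35 higher by more than 0.5, where 8.95% of all probes were lower and 6.36% higher, and the members' median was 0.19 against 0.01 for all probes. Thus a shift of the members' median of this size was found with no duplex.

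Under dsEcad640, 16 members were lower and 31 higher, with 13.8% and 7.6% of all probes, and the members' median was 0.12. Under miR-302a, 8 were lower and 11 higher, with 8.04% and 5.03% of all probes, and the median was 0.05. Under miR-373, 31 were lower and 14 higher, with 11.8% and 4.54% of all probes, and the median was -0.05.
The share of members lowered was 5.88% under dsEcad640 and 2.94% under miR-302a, below that of all probes. Under miR-373 it was 11.5%, close to the 11.8% of all probes. The share raised was 11.4%, 4.04% and 5.19% on these arrays. Under dsEcad640 the members' median was 0.24 with quantile normalization, where that between both mock arrays was 0.20, and 0.22 with the deposited table, and the number of members raised went from 10 with normexp correction to 48 with quantile normalization. Under miR-520c, 27 members were lower and 45 higher, with 14.9% and 18.2% of all probes, and the median was 0.07. Without mock sample 9 the number higher was 22 and the median -0.02, without mock sample 11 they were 65 and 0.18, and with normexp correction 3 members were lower. Under miR-520f, 42 were lower and 23 higher, with 18.4% and 7.38% of all probes, and the median was 0.02. The larger number lower was not found under every setting, with 28 lower and 32 higher under quantile normalization, 2 and 5 with normexp correction, 7 and 20 with all 11 arrays and 5 and 21 with the deposited table. Dim probes made up most of the members lowered under miR-520f: 40 of the 42 were among the 137 members of the lower mean signal over 11 arrays, and 69 of the 273 member probes were not well above background on that array.
Both miR-372 arrays differed from each other. On sample 10, 16 members were lower and 7 higher, with 6.23% and 7.85% of all probes and a median of -0.06. Without mock sample 9, 28 were lower, and without mock sample 11, 12 were lower and 11 higher with a median of 0.02. On sample 4, 4 were lower and 111 higher, with 4% and 28.9% of all probes and a median of 0.36, which turned to -0.16 under quantile normalization, with 86 lower and 23 higher. The shares of all probes were not counted for these alternatives of the miR-372 arrays either.

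miR-372 sample 4 stood apart in the whole series, where 88.15% of 41000 probes passed as well above background, while the share lay between 54.53% and 72.91% elsewhere. Its higher members were mainly dim ones: 99 of the 136 dimmer members and 12 of the 136 brighter ones exceeded mock sample 1 by more than 0.5. Its part in the results was not tested beyond leaving the array out. A limma fit with a mean for each duplex, which has 2 residual degrees of freedom, called 0% of all probes and 0 members for each of the 6 duplexes, and among the members 4 to 23 probes per duplex (1.47% to 8.46%) had an unadjusted p under 0.05, beside 3.56% to 16.9% of all probes.

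**Figure D3:**
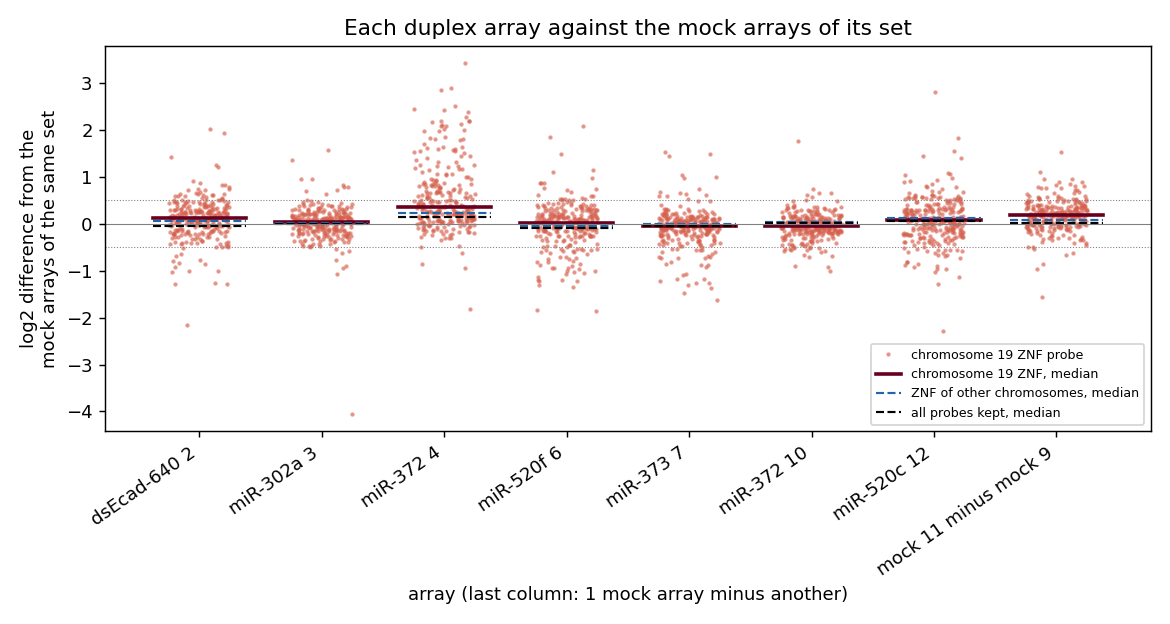
Log2 difference of each member probe (points) from the mock arrays of the same set (y), for the 7 duplex arrays and for mock sample 11 minus mock sample 9 (x), with medians of the members and of other lists as lines and dotted lines at 0.5 and -0.5. The members' median is 0.36 on miR-372 sample 4 and 0.19 between both mock arrays, and between -0.06 and 0.12 on the other 6.

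Along chromosome 19, the members fell into 14 clusters when a gap over 1 Mb was taken as a boundary, and 19 with a gap of 0.5 Mb. The largest by genes, from ZNF628 to ZNF446 (chr19:60687508-63684336), held 63 probes of 45 genes, with a median log2 difference under the common-seed duplexes of 0.04. The next, from ZNF175 to ZNF331 (chr19:56769168-58773188), held 55 probes of 32 genes with a median of 0.11. That from ZNF653 to ZNF791 had a median of 0.01 over 31 probes, and that from ZNF575 to ZNF342, in which ZNF226 lies, one of -0.03 over 28.

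The cluster from ZNF101 to ZNF254 (chr19:19651730-24102686), with 38 probes of 24 genes, had the highest median among the clusters, 0.26, and was singled out after its values were seen. With normexp correction this median was 0.07. It holds ZNF91, a KRAB protein that represses SVA retrotransposons, and its close relatives. The cluster's median was 0.42 under dsEcad640 and 0.54 under miR-520c, where 21 of 38 probes were more than 0.5 higher and 0 lower. It was 0.16 under miR-520f, 0.38 on miR-372 sample 4, and 0.05 under miR-302a, 0.05 on miR-372 sample 10 and -0.0003 under miR-373. The higher values were thus found for some common-seed arrays and not for others. Between mock samples 11 and 9, with no duplex, the median of the same cluster was 0.35, and 36 of 38 probes were above 0. With the probes well above background on all 11 arrays, 28 in number, the cluster's medians were 0.47 under dsEcad640 and 0.55 under miR-520c, and with normexp correction they were 0.09 and 0.47.

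ZNF91 lay between -1.73 and -0.90 on the 4 mock arrays, at -0.98 under dsEcad640 and at -0.65 under miR-520c. Its other common-seed arrays lay between -1.32 and -1.08, within the range of the mock arrays, and the fitted difference was 0.39 with an SE of 0.16 (adjusted p = 0.206). ZNF681 was at -0.58, -0.54, -0.59 and -0.24 on mock samples 1, 8, 9 and 11, at 0.06 under dsEcad640 and at 0.65 under miR-520c. One ZNF254 probe, at chr19:24101684-24101743, was between 0.62 and 1.17 on the mock arrays, at 1.45 under dsEcad640 and highest under miR-520c.
None of the 38 probes passed the test, and at an unadjusted p under 0.05 there were 5 higher and 1 lower, shares close to or below the 11.7% and 9.35% of all probes. The genes of such a cluster are relatives, so that these probes may share RNA, and their agreement cannot be taken as that of independent genes. How alike the sequences of these probes are was not tested. ZNF91, ZNF681 and ZNF254 were chosen here after their values were seen.

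**Figure D4:**
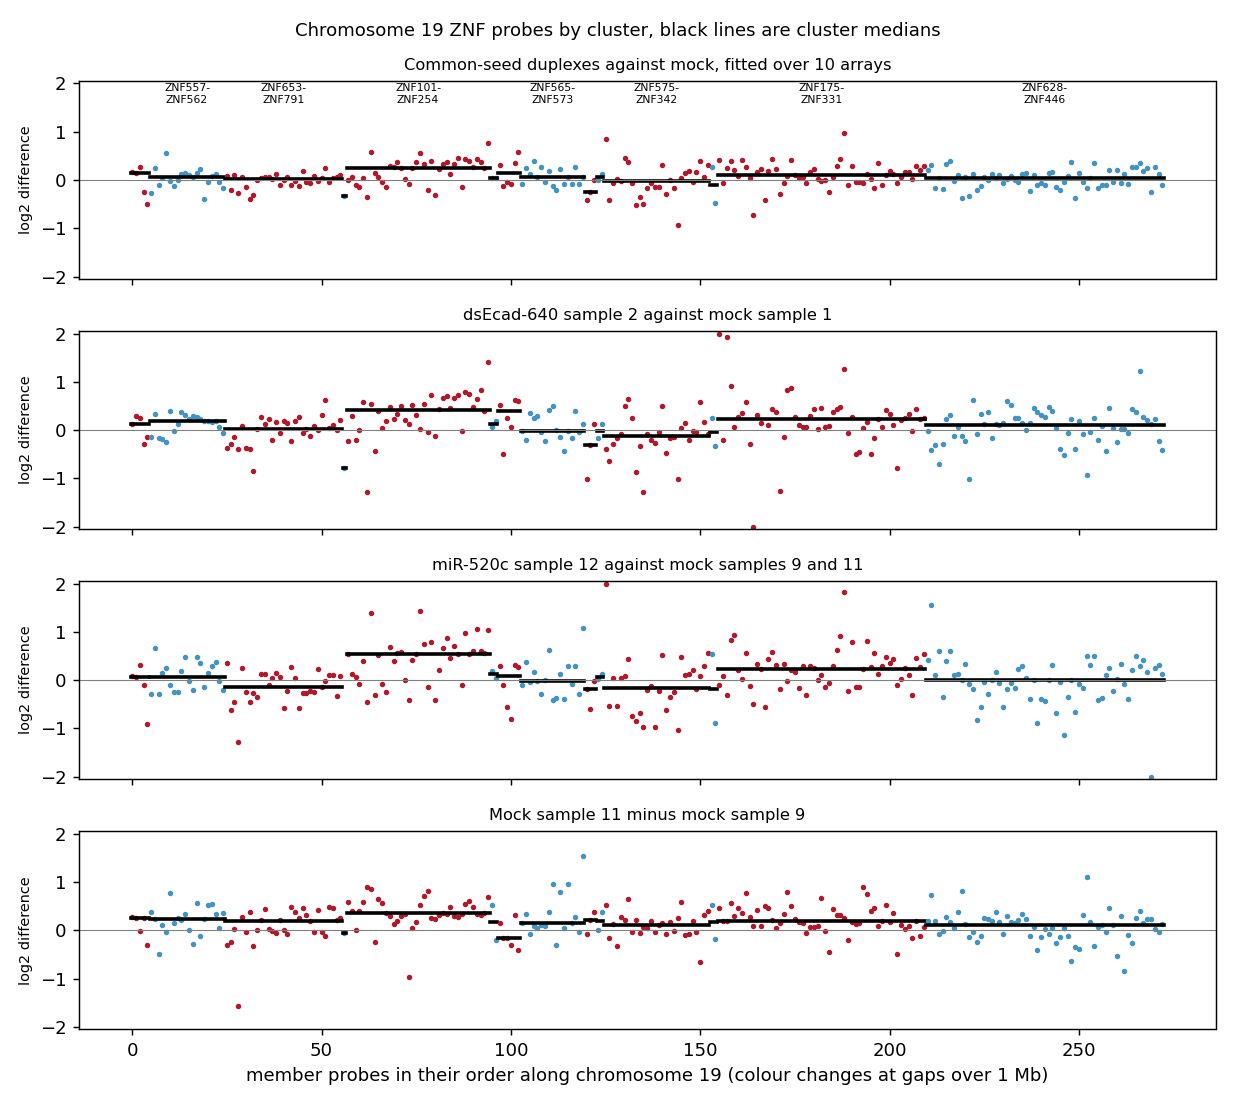
Log2 difference (y, values beyond 2 drawn at the edge) of the 273 member probes in their order along chromosome 19 (x), for the common-seed fit, dsEcad640, miR-520c and mock sample 11 minus mock sample 9, with a black line at each cluster's median. The lines of the cluster from ZNF101 to ZNF254 lie at 0.26, 0.42, 0.54 and 0.35 in this order of panels.

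The signals of the members were low on every array. Their median lay between -2.45 and -2.08, beside -1.84 to -1.47 for the ZNF probes of other chromosomes, -1.36 to -0.75 for the other probes of chromosome 19 and -1.34 to -1.05 for all probes. On the mock arrays the quartiles of the member probes were -3.84 and -1.01, and 29 of 273 were above 0. A signal depends on the probe as well as on the RNA, so that the order of the probes is not an order of transcript amounts.

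The highest mean mock signals by gene were those of ZNF579, ZNF444, ZNF607, ZNF787 and ZNF71. ZNF579 was at 7.64 and 7.42 on mock samples 1 and 8, but at 4.14 and 4.87 on mock samples 9 and 11, and the duplex arrays of set 3 were at 5.15 and 6.06. This probe thus differed more between sets than between duplex and mock. Between the mock arrays of set 3 and the other mock arrays, 19 of 272 members (6.99%) and 14.4% of all probes differed by more than 1. ZNF607 varied least among these on the mock arrays, between 1.99 and 2.08 on the mock arrays and lay between 1.72 and 2.23 on the duplex arrays (log2 difference under the common-seed duplexes -0.08, adjusted p = 0.701). ZNF444, which has a SCAN domain, lay between 2.25 and 2.69 on the mock arrays with a difference of -0.02 (adjusted p = 0.905), and ZNF71 between 0.93 and 1.05 with a difference of 0.06 (adjusted p = 0.81). The lowest were ZNF577, ZNF132 and ZNF491, at -5.76, -5.64 and -5.62 on average, of which ZNF577 was well above background on 2 of 4 mock arrays.

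**Figure D5:**
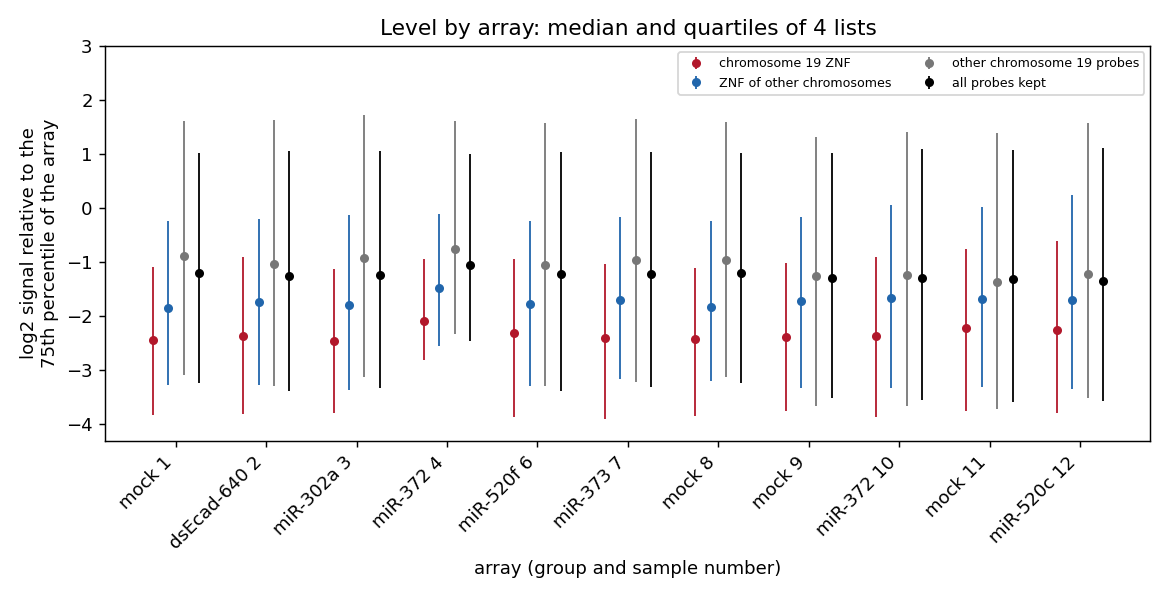
Log2 signal, 0 being the 75th percentile of an array (y), on the 11 arrays (x), as medians (points) with quartiles (bars) of the chromosome 19 ZNF probes, the ZNF probes of other chromosomes, the other probes of chromosome 19 and all probes kept. The members are the lowest of these lists on each array, with medians from -2.45 to -2.08.

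For 69 genes, several probes were members, and for 33 of them all member probes had the same sign under the common-seed duplexes. The median spread of their log2 differences was 0.23. ZNF575 was the single gene with a spread over 1. Its probe at chr19:48731169-48731228 was at 5.39 and 5.22 on mock samples 1 and 8 and at -0.43 and 0.09 on mock samples 9 and 11, and it was at 1.58 on miR-372 sample 10 and 2.63 under miR-520c. In sets 1 and 2 it lay between 4.64 and 5.39 on all arrays. Its log2 difference was 0.86 with an SE of 0.50 (adjusted p = 0.386), while that of the other ZNF575 probe was -0.41.

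The RefSeq promoter table (GRCh38.p14), with 300 bases around the start of each gene, held 163 of the 187 member genes. Their median GC content was 60%, beside 58.33% over 27305 promoters. CACCTG or its reverse complement CAGGTG, the E-box that ZEB1 binds, occurred in 23 of the 163 (14.1%) and in 20.6% of all promoters. A match of these letters is a description of the window and not a binding site.

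The partners through which KRAB domains act were measured by a list of 29 genes, all on the array, with 50 of 53 probes kept. Under the common-seed duplexes 0 were lower and 0 higher by limma at an adjusted p under 0.05, with 7 lower and 7 higher at an unadjusted p under 0.05, and the median was 0.05. The shares over all probes were 2.03% and 2.16% adjusted and 9.35% and 11.7% unadjusted. With probes well above background on all 11 arrays 2 of 49 were lower and 2 higher, beside 4.48% and 5.27% of all probes. With the deposited values 1 of 49 was lower and 2 higher, where 1051 and 961 of all 21375 probes were called. TRIM28 was at a log2 signal of 3.24 ± 0.27 (SD, n = 4) on the mock arrays, with a difference of 0.11 and an adjusted p of 0.628. SETDB1, a histone methyltransferase, had differences of 0.31 (adjusted p = 0.285) and 0.24 (adjusted p = 0.107). The DNA methyltransferases had values of 0.32 and 0.51 for DNMT3A and 0.78 for DNMT3B, and ATF7IP, the partner of SETDB1, one of -0.31, at adjusted p-values of 0.0523, 0.172, 0.071 and 0.0577. ZNF274, a member that binds the 3′ ends of ZNF genes and brings SETDB1 there, had a difference of 0.13 (adjusted p = 0.768). DNMT3A, DNMT3B, ATF7IP and ZNF274 were named after their values were seen.

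The labelled cell line was checked by markers. The epithelial KRT8, KRT18, KRT19 and TACSTD1 (EPCAM) and the mesenchymal VIM were well above background on all 11 arrays. KRT8 and KRT18 rose under the common-seed duplexes, in 2 of 2 and 3 of 4 probes. Of 3 KLK3 probes, 2 were well above background on at most 4 arrays, and the third was at 5.19 ± 1.96 (SD, n = 4) on the mock arrays. The leukocyte marker PTPRC was well above background on 1 array with either probe. The endothelial PECAM1 and the fibroblast COL1A1 were dim, at -3.74 and -3.46, but also well above background on all 11 arrays. One KRT8 probe and one KRT18 probe were about as dim, at -3.39 and -3.52, while the other epithelial probes lay between 1.51 and 6.76. These markers thus do not show PECAM1 and COL1A1 to be absent.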

How the data were processed

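The authors deposited the output of Feature Extraction 10.5.1.1 for 11 one-colour arrays, whose processed signal is an intensity after background subtraction, not scaled between arrays, with hg18 probe coordinates per the file headers. The deposited table of log2 values, made from these arrays by a normalization not given in the sources used here, served as an alternative. Each array's 75th percentile was subtracted from the log2 processed signal, outlier spots (52 to 209 per array) were left out and spots of a probe were averaged. Probes well above background on at least 6 arrays were kept.

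limma 3.58.1 (R 4.3.3) was fitted with the set as a block and Benjamini-Hochberg adjustment over all probes kept, and called at an adjusted p under 0.05. Common-seed duplexes against mock used 10 arrays (6 residual degrees of freedom). Differences from the mock arrays of a set have no test. The members and lists were chosen with earlier results of these data known. Named probes were the 12 of the smallest adjusted p per direction that passed with one sign on all 6 arrays, filled up to 6 by unadjusted p, the 5 highest and 3 lowest genes by mock signal, the 3 largest falls and 3 largest rises under miR-520f, genes whose probes differed by over 1, TRIM28 and SETDB1, and probes that differed between miR-520f and the common-seed duplexes. All 187 member genes were matched to RefSeq, 164 of them by accession. Alternatives were quantile normalization, normexp (offset 50), other filters, no set block, the deposited table, probes averaged by gene, another cluster gap, a log2 difference of 1, all mock arrays together, and leaving out in turn any array of the mock or miR-372 groups. Numbers of zinc fingers were not analysed here.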

Additional observations from a re-analysis of the deposited data

Results flagged for a closer look

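ZNF177 differed between miR-520f and the common-seed duplexes by 1.76 on the log2 scale in the test of that difference (limma, adjusted p = 0.0355), with 1 array of miR-520f, and the neighbouring probe of ZNF177 had a difference of -0.25. Among the 25 named probes on the 4 mock arrays, ZNF577 had a sample far from the others: mock sample 1 was at -6.86, where it was not well above background, and the gap to its nearest neighbour was 0.86 of the range. For 4 values drawn from a single normal distribution, such a gap arises in about 1 of 20 groups. That rate cannot be applied here, since the mock arrays come from 3 sets and ZNF577 was named for its low mock signal. No conclusion is drawn from this 1 among 25.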

How the results depend on the processing

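The members' median under the common-seed duplexes, 0.06, lay between -0.03 and 0.11 in 13 alternatives, the same range as on leaving out 1 array. The number of members lower was 2 with normexp, 3 with probes well above background on all 11 arrays and 0 with probes averaged by gene, and 0 to 4 on leaving out 1 mock or miR-372 array. The number higher was 1 with quantile normalization, with normexp and with the deposited table, 4 with all 11 arrays, and 0 to 2 on leaving out 1 array. Of all 27135 probes, 766 were lower and 674 higher with normexp, and 663 and 594 with quantile normalization. With all 11 arrays, 964 of 21522 probes were lower and 1135 higher. With the deposited values, 1051 of 21375 were lower and 961 higher. Averaged by gene, 382 of 19985 genes were lower and 436 higher. Between miR-520f and the common-seed duplexes, 4 members differed with quantile normalization, 2 with all 11 arrays and with the deposited table, 0 with no filter, with no set block and with probes averaged by gene, and 0 to 5 on leaving out 1 array. This comparison could not be fitted without mock sample 8. Its calls over all probes were not counted in these alternatives, so a change in the member count has no share beside it. In the fit with a mean per duplex, normexp gave 1 member for miR-520c. On miR-372 sample 4 the members' median was -0.16 with quantile normalization, 0.12 with normexp and -0.13 with the deposited table, and normexp turned that of dsEcad640 to -0.0831. On miR-372 sample 4, all probes had a median of 0.15, and of -0.08 with quantile normalization. The downstream ZNF226 probe turned to -0.10 with no set block and -0.0879 without mock sample 9. Averaged by gene, ZNF226 was at -0.45, ZNF575 at 0.23 and ZNF493 at 0.016. Over all probes, calls fell to 14 lower and 10 higher without mock sample 1 and reached 1115 and 810 without miR-372 sample 4. The cause of these shifts was not tested. Without mock sample 1 or 8, the duplexes of its set had no mock array and gave no difference.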
